A study of Mus musculus with 8 samples.

Results

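The cells described here are excitatory cortical neurons that were collected with a dopamine D1 receptor reporter and picked by counts of a small set of genes. A cell was a member when it had a count above 0 for Neurod6 and for at least 3 of the 6 genes Cyp26b1, Oprk1, Sstr2, Slc30a3, Cnih3 and Il1rapl2, and a count of 0 for each of Cux2, Gad1, Gad2, Fezf2 and Syt6. The rule found 131 cells among 11494 sorted for the Drd1a-tdTomato reporter (D1Tom), and the whole series holds 22876 cells. The 2 control libraries held 55 and 34 of them and the 2 conditional knockout (cKO) libraries 24 and 18. Values given below as a run of 4 follow that order, control 1, control 2, cKO 1, cKO 2.

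Single-cell 3′ RNA libraries were made from frontal isocortex of mice at postnatal day 7, after live tdTomato-positive cells had been sorted. Control mice carried Drd1a-tdTomato and Foxp2 flox/flox without Cre. Conditional knockouts carried Drd1a-tdTomato, Emx1-Cre and Foxp2 flox/flox, so both groups shared the floxed alleles and the reporter, which is a bacterial artificial chromosome (BAC) transgene of line 6. Each group had 2 libraries, and control 1 and cKO 1 were prepared on 1 day and control 2 and cKO 2 on another. The animals had been backcrossed to C57BL/6J, and all libraries were labelled female except cKO 2, which was male. How many animals went into a library is not given in the sources used here, so p-values measure the spread between these libraries. Emx1-Cre acts in the lineage of cortical excitatory neurons and of cortical astrocytes, and Emx1 itself carries the Cre insertion.

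Glutamatergic neurons of the cortex fall into types that send axons within the telencephalon, to the brainstem or to the thalamus, and these types occupy different layers. Neurod6 encodes a transcription factor of postmitotic excitatory neurons. Cux2 marks upper layer neurons, Fezf2 deep layer neurons with subcerebral axons, Syt6 a set of corticothalamic neurons, and Gad1 and Gad2 encode the enzymes that make GABA. Of the 6 genes that chose the members, Slc30a3 encodes the transporter ZnT3 that loads zinc into synaptic vesicles, and Oprk1 encodes the kappa opioid receptor. Cyp26b1 encodes an enzyme that degrades retinoic acid, Sstr2 a somatostatin receptor, Cnih3 an auxiliary protein of AMPA-type glutamate receptors, and Il1rapl2 a member of the interleukin 1 receptor accessory protein family.

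Depth touched the choice of the cells. Member cells had median totals of 23942, 19073, 16298 and 14890 counts, against 8131, 12815, 7215 and 7198 for all cells of the same libraries. Cells with 2 of the 6 genes, just outside the rule, numbered 239 and had a median of 9277 counts. The 81 cells with exactly 3 genes had a median of 14619, and the 35 cells with 4 genes a median of 23079. When each cell was thinned to 3000 counts, 45 cells met the rule, of which 20 were among the 131. Counts summed over the members came to 1111326, 631544, 457033 and 235156 per library, so cKO 2 carried the least data. Values of 2 were 1.71, 0.759, 1.55 and 0.374 times as frequent as values of 1 in the member cells, so the counts did not behave as plain numbers of molecules and no Poisson interval was used. Of 11391 distinct barcodes in the D1Tom libraries, 97 occurred in more than 1 library, and 0 of these belonged to a member.

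The 6 choosing genes were spread unevenly over the members, which is a description of the choice and not a finding. Cnih3 had a count in 118 of the 131 cells, Slc30a3 in 90, Cyp26b1 in 86, Sstr2 in 69, Oprk1 in 55 and Il1rapl2 in 43. Both genes of the working name, Slc30a3 and Oprk1, had counts in 27 cells, Slc30a3 without Oprk1 in 63, Oprk1 without Slc30a3 in 28, and 13 cells had neither. The most common combination was Cyp26b1, Slc30a3 and Cnih3 in 33 cells, followed by Oprk1, Sstr2 and Cnih3 in 10. Of the 81 cells just inside the rule, with 3 of the genes, 88.9% had Cnih3, 64.2% Slc30a3 and 28.4% Oprk1, and of the 239 just outside, with 2, these were 75.7%, 44.4% and 11.3%. The name therefore does not describe every cell, and they are called member cells from here on. Members carried 5 of the 6 genes in 12 cells and all 6 in 3 cells.

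The excitatory identity held on a gene that the rule had not used. Slc17a7, which encodes the vesicular glutamate transporter VGLUT1, had counts in 118 of 131 member cells. After thinning to 5000 counts this was 68.0% of the 122 members deep enough. In 1754 thinned astrocyte cells, chosen as cells with at least 3 of Aqp4, Gja1, Aldoc and Mfge8 and no Neurod6, Gad1 or Gad2, the background was 11.3%. Median depths before thinning were 18994 counts for members and 7669 for those astrocyte cells. Members had counts for 10 of 11 listed interneuron genes and 9 of 11 striatal genes. They also had counts for 4 of 6 oligodendrocyte and 5 of 8 microglial genes. The interneuron gene Lhx6, the striatal genes Isl1 and Tac1 and the oligodendrocyte genes Mog and Mobp were at 0 in all members. So were the microglial genes P2ry12, Tmem119 and Csf1r. Isl1 was also at 0 in the astrocyte cells, so its absence does not set members apart. The 8 microglial genes summed to between 0 and 8.51 CPM (counts scaled by the total of each sum) in the 4 libraries. The 11 striatal genes summed to 489, 409, 385 and 412 CPM, against 506, 428, 450 and 351 CPM in the astrocyte cells. The 11 interneuron genes summed to 759, 288, 350 and 353 CPM, above the 205, 160, 298 and 237 CPM of the astrocyte cells. That list includes Npy, which alone stood at 741, 253, 306 and 289 CPM in members. Astrocyte transcripts were present, with 10 of 10 listed genes detected and a summed level of 2113, 4365, 2663 and 4597 CPM, against 18337 to 39899 CPM in the astrocyte cells. In control 2 the 4 haemoglobin genes summed to 2849 CPM, against 24.1 to 34.2 in the other member sums, and 684 of its 703 Hba-a1 counts lay in 1 cell.

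Member cells were set beside 2 other classes of Neurod6 cells without Gad1 and Gad2 in the same libraries. The first held 784 cells with Cux2 and neither Fezf2 nor Syt6, called Cux2 cells. The second held 1286 cells with Fezf2 or Syt6 and without Cux2. Classes chosen from the counts of the same cells cannot be tested against each other, so levels are given as a description, as CPM of the counts summed per library. A gene was counted when its ratio, with 5 CPM added to both levels, passed 2-fold in all 4 libraries.

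Compared with Cux2 cells, 14 of 5827 genes (0.24%) were at least 2-fold higher in the members in all 4 libraries and 5 (0.0858%) at least 2-fold lower. Npy, which encodes neuropeptide Y and is on the interneuron list, led the higher genes. Its level in members was 741, 253, 306 and 289 CPM, against 33.7, 50.5, 34.4 and 60.6 CPM in Cux2 cells and 105, 106, 149 and 92.3 CPM in Fezf2 or Syt6 cells. Every member sum lay above every sum of the other 2 classes. The cells just outside the rule had Npy at 388, 132, 395 and 125 CPM, above both of these classes in each library. Their level was above that of members in cKO 1 and below it in control 1, control 2 and cKO 2, so a raised Npy level was not confined to members. The Npy counts were broadly shared in control 1, where 44 of 55 members had one and the highest 3 cells held 24.3% of them. In control 2, cKO 1 and cKO 2 the highest 3 cells held 74.4%, 70.7% and 85.3%. Without the single highest cell of each library, Npy stood at 683, 155, 188 and 105 CPM. After thinning, 47.5% of members had an Npy count, against 18.6% of Cux2 cells, 27.0% of Fezf2 or Syt6 cells and a background of 21.0% in astrocyte cells. By library the thinned shares of members were 64.8%, 33.3%, 50.0% and 13.3%, so in cKO 2 members lay below Cux2 cells (20.8%) and astrocyte cells (25.6%).

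The other leading genes included receptors, enzymes and signalling proteins. Rasgrp1, an activator of Ras, stood at 236, 69.7, 162 and 102 CPM in members and at 10.2, 26.3, 56.9 and 25.9 CPM in Cux2 cells. Glra2, a glycine receptor subunit, stood at 130, 96.6, 96.3 and 59.5 CPM against 38.4, 30.9, 32.3 and 17.0 CPM. Rxfp1, the relaxin receptor, stood at 51.3, 44.3, 43.8 and 12.8 CPM against 1.82, 6.95, 11.8 and 2.53 CPM. Leading genes were ranked by the smallest of their 4 library ratios, so being higher than in Cux2 cells in all 4 follows from the ranking. In Fezf2 or Syt6 cells Glra2 stood at 127, 74.5, 133 and 78.1 CPM, above members in both cKO libraries. Rasgrp1 stood there at 113, 94.6, 125 and 76.3 CPM, above members in control 2. Rxfp1 stood there at 29.3, 17.0, 17.2 and 14.1 CPM, above members in cKO 2. Hs3st2, a heparan sulfate sulfotransferase, Nov, a secreted matrix protein, Scg2, a secretogranin, Ptprr, Islr2, Tox, Lypd6b and the potassium channel gene Kcnj9 completed the 12 leading genes. Against Fezf2 or Syt6 cells, the mean log2 ratio of members was -0.07 for Islr2 and -0.59 for Tox.

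Among the genes at lower levels in members than in Cux2 cells, Gfap, an astrocyte filament gene, stood at 0.9, 34.8, 13.1 and 25.5 CPM in members and 28.9, 139, 72.8 and 160 CPM in Cux2 cells. Emx2, C1ql1, Rnaset2a, Enpp2, Gpr17 and Ednrb were also among the lowest genes. Of the 10 astrocyte genes, 8 were lower than in Cux2 cells in all 4 libraries and 0 higher, where 11.3% of 11126 genes with a mean of at least 5 CPM were lower and 14.5% higher. The median log2 ratio was -0.77 for that list and 0.01 for all those genes. The part of astrocyte transcripts in the differences between classes was not tested.

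Layer markers were mixed in the members. Of 11 upper layer genes outside the rule, 5 were lower and 2 higher than in Cux2 cells in all 4 libraries, beside 11.3% lower and 14.5% higher of all 11126 genes. Pou3f2, an upper layer transcription factor, stood at 70.2, 111, 78.8 and 132 CPM in members against 301, 199, 232 and 181 CPM in Cux2 cells and 81.5, 107, 72.4 and 104 CPM in Fezf2 or Syt6 cells. Lmo4, a transcriptional cofactor from the same list, stood at 1255, 1110, 1094 and 978 CPM against 788, 643, 582 and 410 CPM in Cux2 cells and 619, 614, 634 and 458 CPM in Fezf2 or Syt6 cells. Lmo4 was highest in members in each library, whereas Pou3f2 was below its level in Cux2 cells in each. Bcl11b, which encodes CTIP2, a transcription factor of subcerebral projection neurons, stood at 161, 109, 105 and 123 CPM in members, 11.1, 46.4, 30.8 and 60.6 CPM in Cux2 cells and 446, 298, 405 and 285 CPM in Fezf2 or Syt6 cells.

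**Figure D1:**
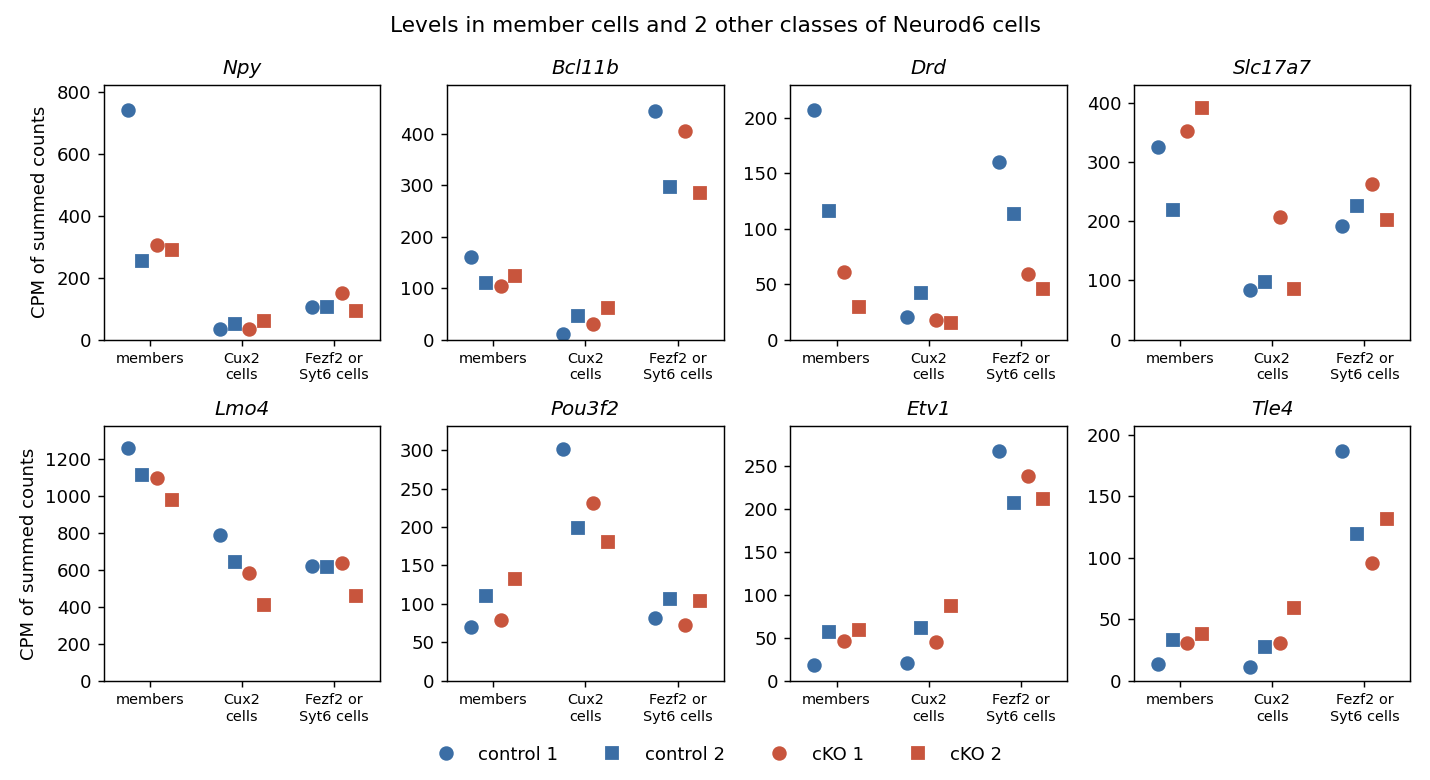
Levels of 8 genes, in CPM of summed counts on a linear axis from 0, for member cells, Cux2 cells and Fezf2 or Syt6 cells. Each point is 1 library, circles for replicate 1 and squares for replicate 2, blue for control and red for cKO. Npy and Lmo4 lie above both other classes in the members, Bcl11b lies between them, and Etv1 and Tle4 lie lowest or close to Cux2 cells.

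Compared with Fezf2 or Syt6 cells, 2 of 5793 genes (0.0345%) were at least 2-fold higher in members in all 4 libraries and 10 (0.173%) at least 2-fold lower. Leading among the higher genes were Inhba, a subunit of activin and an upper layer marker, with 55.8, 68.1, 59.1 and 38.3 CPM against 17.1, 31.1, 23.3 and 12.3 CPM, and Npy. Cck, the gene of the neuropeptide cholecystokinin, stood at 1177, 611, 1197 and 770 CPM against 301, 322, 301 and 224 CPM. Scg2, Ptprk, Tmem196, Sorbs2, Bdnf, Rax, Scube1 and the prohormone convertase gene Pcsk2 were among the next. Deep layer genes made up most of the lowest ratios. Etv1, a marker of layer 5, stood at 18.0, 57.0, 45.9 and 59.5 CPM in members and 267, 207, 238 and 212 CPM in Fezf2 or Syt6 cells. Tle4, a corepressor of corticothalamic neurons, stood at 13.5, 33.3, 30.6 and 38.3 CPM against 186, 119, 95.7 and 131 CPM. Trp53i11, Nxph3, Tshz2, Hs3st4, Lypd1 and Foxp2 were also among the lowest. Of 10 corticothalamic genes 7 were lower and 1 was higher than in that class in all 4 libraries, where 10.1% of 10995 genes were lower and 9.96% higher. That class was chosen for Fezf2 or Syt6, which the rule set at 0 in members, so lower levels of related deep layer genes can follow from the choice.

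Lists of genes related in function to the choosing genes were read against the same shares of all genes in Cux2 cells, 14.5% higher and 11.3% lower. Here and above, those shares cover genes with a mean of at least 5 CPM in either class, whereas list genes were counted at any level. For lists with genes near 0 the bases are therefore unlike. Among 21 retinoic acid genes other than Cyp26b1, 1 was higher and 3 were lower than in Cux2 cells in all 4 libraries, and Cyp26a1, Cyp26c1, Aldh1a2, Crabp1, Crabp2 and Stra6 had no count in any member. Of 24 other zinc transporter and metallothionein genes, 1 was higher and 3 were lower than in Cux2 cells. Among 21 AMPA receptor genes beside Cnih3, 5 were higher and 4 lower than in Cux2 cells. The receptor subunit Gria3 stood at 146, 64.9, 171 and 132 CPM in members and 58.9, 55.6, 61.0 and 66.3 CPM in Cux2 cells. Of 21 genes of the IL1RAPL family and synaptic adhesion list beside Il1rapl2, 6 were higher and 0 lower than in Cux2 cells in all 4 libraries. Compared with Fezf2 or Syt6 cells, 5 were higher and 2 lower, where 9.96% of 10995 genes were higher and 10.1% lower. In the opioid list, 2 of 9 genes were higher than in Cux2 cells in all 4 libraries and 0 lower.

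Within the members, cells with and without an Oprk1 count differed in other genes. This division was chosen after the values were seen, and it is given as a description. Oprk1 was counted in 61.8%, 20.6%, 33.3% and 33.3% of members, with control 1 highest. These were 34, 7, 8 and 6 cells, so levels with Oprk1 rested on few cells in control 2, cKO 1 and cKO 2. The 55 cells with Oprk1 had a median of 24169 counts and the 76 cells without it a median of 13347. Bcl11b had a count in 40 of 55 cells with Oprk1 and in 29 of 76 without, and Rasgrp1 in 52 of 55 and 27 of 76. Rorb, a transcription factor of layer 4 and layer 5 neurons, went the other way, with counts in 13 of 55 and 46 of 76. These numbers of cells pool the 4 libraries, and 34 of the 55 cells with Oprk1 came from control 1. By library, Rorb was counted in 12 of 55, 25 of 34, 12 of 24 and 10 of 18 members. Rasgrp1 was counted in 42 of 55, 15 of 34, 14 of 24 and 8 of 18. The part of control 1 in the pooled differences was not tested. Rorb was also common in astrocyte cells, at 58.7% after thinning to 5000 counts against 31.1% of all members. Cux2 cells had 42.3% and Fezf2 or Syt6 cells 39.6%, so astrocyte cells give no background level for this gene. How much of the Rorb counts in members was astrocyte transcript was not tested. Rorb stood at 10.1, 76.5, 28.5 and 124 CPM in cells with Oprk1 and at 149, 291, 280 and 231 CPM in cells without it. Rasgrp1 stood at 267, 181, 251 and 165 CPM with Oprk1 and 158, 36.9, 85.3 and 57.8 CPM without it. Both orders held in all 4 libraries. Bcl11b stood at 195, 243, 176 and 114 CPM with Oprk1 and 75.9, 69.7, 44.7 and 130 CPM without it, so its order turned in cKO 2. The astrocyte list gene Fabp7 moved in the same direction as Rorb, at 749, 1210, 474 and 816 CPM with Oprk1 and 1653, 2073, 2079 and 2110 CPM without it, and its part in the Rorb difference was not tested. Npy was higher with Oprk1 in 3 libraries, at 912, 591 and 465 against 310, 154 and 171 CPM, and lower in cKO 2, at 145 against 390 CPM. A cell without Oprk1 needed 3 of the other 5 genes, so its more frequent Cyp26b1 and Slc30a3 counts follow in part from the rule.

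**Figure D2:**
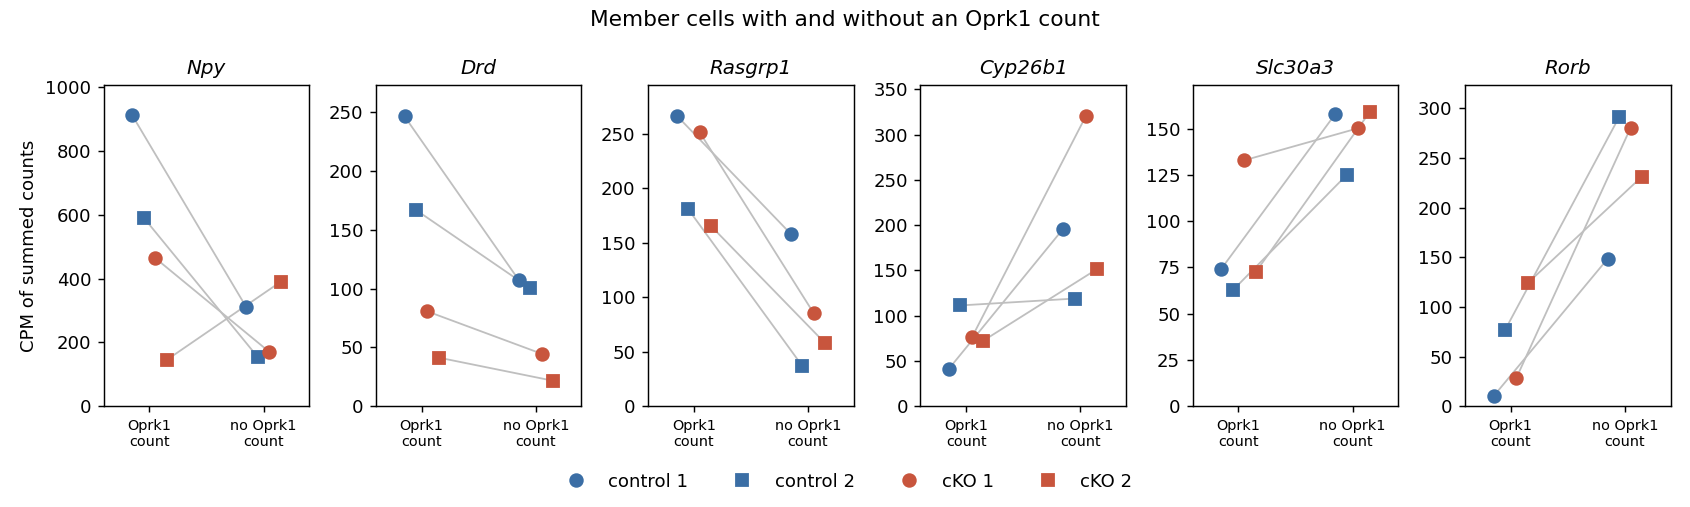
Levels of 6 genes, in CPM of summed counts, in member cells with and without an Oprk1 count. Each point is 1 library, and lines join the 2 sets of cells of a library. Rasgrp1 and Drd fall and Rorb rises from the cells with Oprk1 to those without in all 4 libraries, while Npy falls in 3 libraries and rises in cKO 2. Cyp26b1 and Slc30a3 are genes of the rule.

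The share of member cells was lower in both cKO libraries when all sorted cells were the base, and the order was less clear among excitatory cells. Members made up 1.72%, 1.42%, 0.853% and 0.584% of all sorted cells. The exact 95% binomial intervals, which cover the counting of cells only, were 1.29 to 2.23% for control 1, 0.985 to 1.98% for control 2, 0.548 to 1.27% for cKO 1 and 0.347 to 0.922% for cKO 2. The mean was 1.57% ± 0.209 in controls and 0.719% ± 0.190 in cKO (SD, n = 2 libraries each), with both cKO libraries below both controls. An exact two-sided permutation test of this difference of -0.849 percentage points gave p = 0.333, the smallest value that 2 libraries against 2 allow. The difference was -0.862 points in the first batch and -0.835 points in the second. Of Neurod6 cells without Gad1 and Gad2, members made up 4.51%, 2.66%, 2.80% and 1.49%, so the groups overlapped (difference -1.44 points, exact permutation p = 0.667). In cells thinned to 5000 counts the shares of all cells were 1.33%, 1.02%, 0.952% and 0.528%, with 798, 47, 816 and 621 cells too shallow to enter. The sort selected cells by a Drd1a reporter, and a share among sorted cells cannot be told apart from a change in which cells the reporter gate took. The rule needed counts, and member cells of cKO libraries had lower median totals than those of controls.

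**Figure D3:**
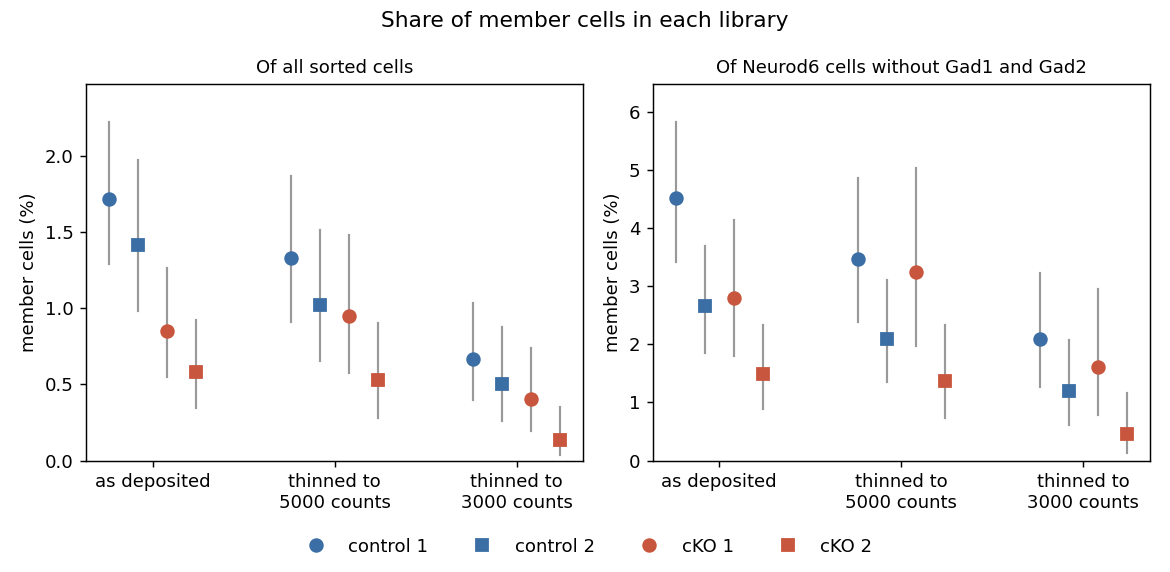
Share of member cells in each library, in percent, of all sorted cells (left) and of Neurod6 cells without Gad1 and Gad2 (right), from counts as deposited and after thinning. Points are libraries and grey bars are exact 95% binomial intervals. Of all sorted cells both cKO libraries lie below both controls at each depth, while of Neurod6 cells cKO 1 lies above control 2 at each depth.

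Foxp2, the targeted gene, was scarce in members of both genotypes. It had 6, 13, 0 and 1 counts in the 4 member sums, in 4, 7, 0 and 1 cells. At 5.4, 20.6, 0 and 4.25 CPM it fell below the filter on low counts and was not tested. In thinned cells 4.1% of members had a Foxp2 count, at or below the 5.42% of astrocyte cells, so these counts cannot be read as expression above background. In Fezf2 or Syt6 cells Foxp2 stood at 113, 77.3, 19.8 and 18.6 CPM. The libraries read the 3′ end of transcripts, and which exons the floxed alleles flank is not given in the sources used here, so its level does not check the deletion directly.

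The genotypes were compared over the summed counts of the members with edgeR's quasi-likelihood test and Benjamini-Hochberg adjustment at 0.05 over all genes. Of 7764 genes tested, 0 passed (0.0%), and 219 (2.82%) had an unadjusted p under 0.05. With the preparation batch as a block, which the labels give as the shared day of same-numbered libraries, 19 genes passed (0.245%), of which 15 were higher in cKO (0.193%) and 4 lower (0.0515%). DESeq2 called 3 of 13876 genes (0.0216%), Cartpt, Sfxn1 and mt-Co2, and 55 (0.396%) had an unadjusted p under 0.05. Without control 1 the unblocked test called 16 genes, led by haemoglobin genes, and without control 2 it called 35. Both cKO libraries lay below both controls for 16.1% of the genes tested and above them for 13.1%, so an order without overlap is common here. No gene named in the next paragraphs passed the unblocked edgeR test.

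Drd, the row read here as the D1 receptor gene because the table has no row named Drd1, stood at 207, 116, 61.3 and 29.8 CPM. Counts of it occurred in 40 of 55, 21 of 34, 7 of 24 and 4 of 18 members. Both controls lay above both cKO libraries. The log2 ratio of cKO to control was -1.73 with a standard error of 0.386 (adjusted p = 0.865 by edgeR), and with the batch block it fell by 1.80 on the log2 scale (adjusted p = 3.03e-04). The same order appeared in members with Oprk1, at 247, 167, 80.7 and 41.3 CPM, and in members without it, at 107, 100.5, 44.7 and 21.7 CPM. Drd stood at 20.7, 42.0, 17.9 and 14.5 CPM in Cux2 cells and 160, 113, 59.1 and 45.4 CPM in Fezf2 or Syt6 cells. The difference between the genotype effect in members and that in the other class was -0.92 for Cux2 cells (edgeR adjusted p = 0.931) and -0.39 for Fezf2 or Syt6 cells (edgeR adjusted p = 0.988), with standard errors of 0.549 and 0.330. The cells had been sorted on a Drd1a reporter.

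Sfxn1, a mitochondrial serine carrier, stood at 1099, 1238, 519 and 489 CPM. Its log2 ratio was -1.19 with a standard error of 0.255 (edgeR adjusted p = 0.849), and it passed with the batch block (adjusted p = 5.31e-06) and in DESeq2 (adjusted p = 0.0443). In Cux2 cells the levels were 1130, 1244, 449 and 495 CPM, close to those of members, and the difference of the effects was 0.10 with a standard error of 0.171 (edgeR adjusted p = 0.987). Emx1 stood at 27.9, 22.2, 21.9 and 17.0 CPM, with a log2 ratio of -0.33 and a standard error of 0.545 (edgeR adjusted p = 1.00). Hist1h2ap, a histone H2A gene, stood at 106, 66.5, 4.38 and 12.8 CPM (log2 ratio -3.52, edgeR adjusted p = 0.230, and 1.98e-06 with the batch block). Its counts were few, with 118, 42, 2 and 3 in the 4 sums, and 63 of those in control 1 came from 1 cell. Zmynd8, a chromatin reader, stood at 108, 109, 39.4 and 51.0 CPM, and Chn2, a chimaerin, at 50.4, 41.2, 4.38 and 17.0 CPM. Both were lower in both cKO libraries and passed neither test, with adjusted p = 0.0771 and 0.104 by edgeR with the batch block.

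Cartpt and Pcp4 stood higher in cKO members. Cartpt, the gene of a neuropeptide precursor, stood at 11.7, 4.75, 45.9 and 174 CPM (log2 ratio 3.55, edgeR adjusted p = 0.339). It passed with the batch block (adjusted p = 2.63e-06) and in DESeq2 (adjusted p = 0.042). These values rested on 4, 1, 6 and 2 cells, and 35 of the 41 Cartpt counts of cKO 2 came from 1 cell, without which its level was 27.8 CPM. Pcp4, a calmodulin-binding peptide of deep layer neurons, stood at 113, 66.5, 228 and 234 CPM (log2 ratio 1.35, edgeR adjusted p = 0.849, and 9.96e-04 with the batch block). It had counts in 21 of 55, 21 of 34, 15 of 24 and 12 of 18 members. Without the highest cell of each library Pcp4 stood at 50.2, 54.8, 145 and 154 CPM, higher in both cKO libraries. In members with Oprk1 the genotypes overlapped, at 126, 55.7, 56.9 and 269 CPM, and in members without it Pcp4 stood at 82.2, 69.7, 374 and 210 CPM. Slc24a5, Otub1, a deubiquitinase, Inpp4a, a phosphoinositide phosphatase, and Gnb1, a G protein subunit, were also higher in both cKO libraries. Gnb1 stood at 1175, 914, 1943 and 1624 CPM. Of these 4 genes, Slc24a5, Otub1 and Gnb1 passed with the batch block.

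**Figure D4:**
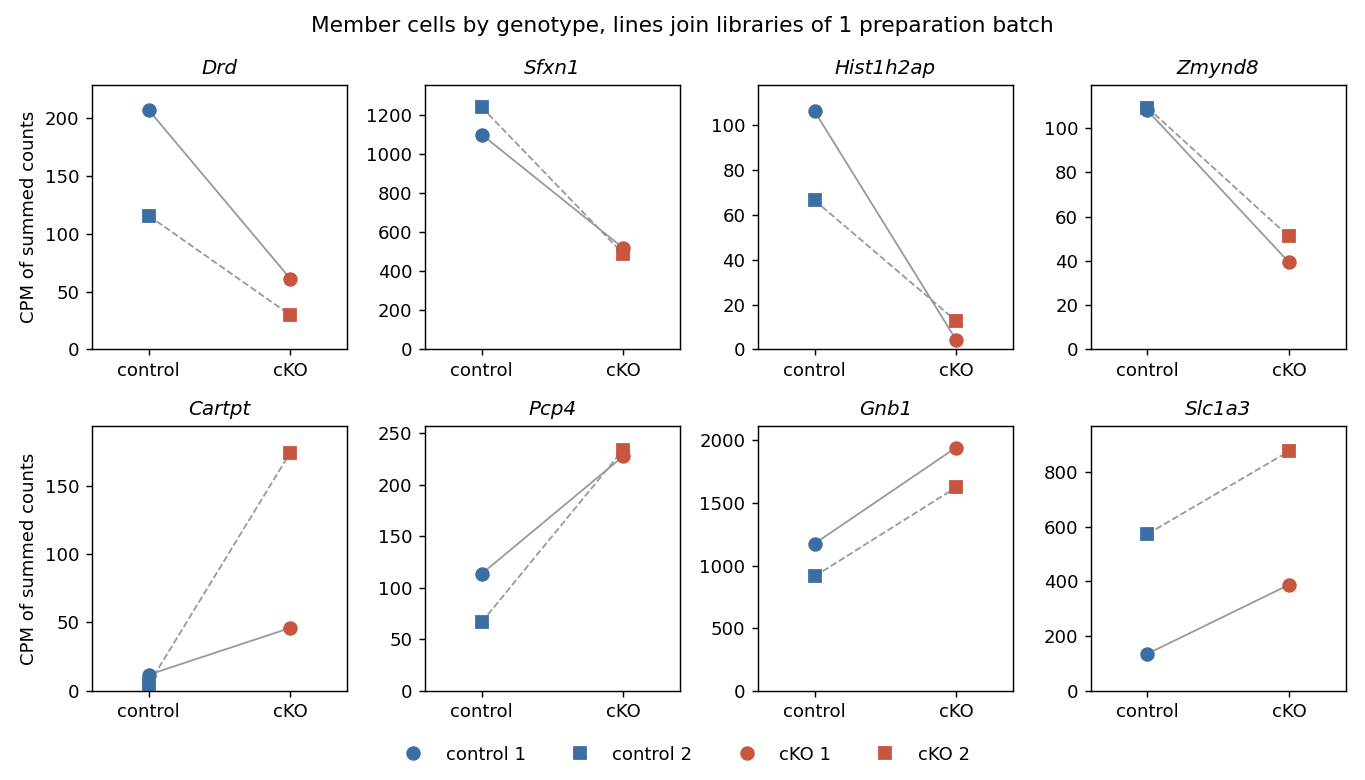
Levels of 8 genes in member cells, in CPM of summed counts on linear axes from 0, by genotype. Circles joined by a solid line are the libraries of the first preparation batch and squares joined by a dashed line those of the second. Slc1a3 overlaps between the genotypes and is higher in cKO within both batches, whereas the other 7 genes do not overlap.

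The genes higher with the batch block (0.193% of those tested) also included Slc1a3, Sox9, Ptprz1 and Mt3. Slc1a3, a glutamate transporter of astrocytes, stood at 135, 573, 387 and 876 CPM, Sox9, an astrocyte transcription factor, at 9.9, 79.2, 67.8 and 145 CPM, and Ptprz1 at 204, 784, 608 and 1008 CPM. Mt3, a zinc-binding metallothionein, stood at 272, 549, 536 and 1038 CPM. Each was higher in cKO than in control of the same batch, and each overlapped between the genotypes. The astrocyte list summed to 2113, 4365, 2663 and 4597 CPM, higher in cKO within each batch. Of its 10 genes 1 passed with the batch block, Slc1a3, and 0 were higher in both cKO libraries than in both controls. The part of astrocyte transcripts in these results was not tested. Leaving out the 80 members with at least 3 counts for at least 3 astrocyte, microglial or endothelial genes left 51 cells, 23, 11, 12 and 5 by library. In these the unblocked edgeR test called 1 of 3837 genes, Pcp4 (log2 ratio 3.77, adjusted p = 0.00256). The sum of cKO 2 thus rested on 5 cells.

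By fixed lists, 0 genes passed the unblocked test in any of the 28 lists (4 of which had no gene past the filter on low counts), so lists are described by counts and medians beside a median log2 ratio of 0.01 over the 7764 genes tested. Over all those genes, 16.1% were lower and 13.1% higher in both cKO libraries. Of 9 tested excitatory genes outside the rule, 2 were higher and 4 lower in both cKO libraries, with a median of 0.14. Neurod2, a factor of the Neurod6 family, stood at 291, 201, 177 and 140 CPM, and Slc17a7 at 327, 219, 352 and 391 CPM. In the dopamine list of 10 tested genes, 4 were lower and 2 higher in both cKO libraries, with a median of -0.18, and Drd and Gnb1 passed with the batch block in opposite directions. The zinc list had 15 tested genes, 2 higher and 1 lower, and a median of 0.28. The AMPA receptor list had 16, with 1 higher and 2 lower and a median of -0.05. Among 3 tested dissociation and activity genes, 2 were lower in both cKO libraries, with a median of -1.14, and Fos, which was below the filter, stood at 57.6, 17.4, 2.19 and 12.8 CPM. Median mitochondrial shares of member cells were 2.94%, 3.42%, 6.61% and 3.97%, highest in cKO 1.

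The genotype effect in members was compared with that in Cux2 cells by the interaction of class and genotype, with each library as a block. Of 10823 genes, 6 passed (0.0554%), 3 with a higher and 3 with a lower effect in members, and 596 (5.51%) had an unadjusted p under 0.05. Gnb1 and Slc24a5 stood higher in cKO members but not in cKO Cux2 cells, whose Gnb1 levels were 1437, 1403, 1373 and 1100 CPM. The interaction was 0.95 with a standard error of 0.154 for Gnb1 (edgeR adjusted p = 0.0076) and 1.52 with a standard error of 0.261 for Slc24a5 (edgeR adjusted p = 0.0113). Without control 2 the adjusted p of Gnb1 was 0.0825, and without control 1 that of Slc24a5 was 0.192. Hist1h2ap stood higher in cKO Cux2 cells, at 63.5, 79.6, 160 and 259 CPM, opposite to the members (interaction -5.07, standard error 0.513, edgeR adjusted p = 5.99e-06), and it passed under each of the 7 alternatives. Compared with Fezf2 or Syt6 cells, 0 of 11465 genes passed in edgeR (0.0%), and 470 (4.1%) had an unadjusted p under 0.05. Without control 1 that test called 5 genes, without control 2 it called 19, and without cKO 2 it called 1. For Hist1h2ap this interaction was -3.79, with a standard error of 0.542 and an edgeR adjusted p of 0.0857. For Pcp4 it was 1.87, with a standard error of 0.299 and an edgeR adjusted p of 0.094. In Fezf2 or Syt6 cells Pcp4 stood at 993, 340, 576 and 308 CPM.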

How the data were processed

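Single-cell 3′ libraries were made with a Chromium v2 kit, per the labels' protocols. The authors deposited counts per gene and cell. The submitters' processing notes name Cell Ranger 2.1.1, UMI-tools 0.5.4, STAR 2.5.2b, featureCounts of Subread 1.6.2 and builds mm10 and GRCm38.p6. All 17836 genes and all deposited cells were kept, and no doublet caller was run. Counts of member cells were summed per library and tested with edgeR 4.0.16 (TMM, filterByExpr, quasi-likelihood, adjusted p 0.05) without a block. DESeq2 1.42.0, the batch block, other rules and left-out libraries were alternatives. The numbers pair the libraries because the labels give same-numbered libraries a shared preparation day, and their deviations from the group means correlated at 0.21 over 7764 genes. The tests were checked on simulated counts with the same dispersion for all genes and no batch difference. At 2-, 4- and 8-fold the genotype test recovered 5 of 64, 53 of 65 and 61 of 64 genes, with 6 false calls. The interaction test against Cux2 cells recovered 2 of 67, 32 of 67 and 55 of 66, with 1 false call. An absence of calls therefore says little about 2-fold changes. The recovery at 4- and 8-fold holds for the simulated setting only. In the deposited counts Hist1h2ap and Cartpt, with log2 ratios of -3.52 and 3.55, did not pass the unblocked edgeR test. The mitochondrial fraction of each cell was taken as the authors deposited it, and the sources used here do not say how it was made.

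Named genes were the choosing genes, Foxp2, Drd, Sfxn1 and Emx1, genes of fixed lists, up to 15 genes per direction past the threshold, up to 10 per direction with the block, the 10 smallest p-values among genes at 20 CPM or more without overlap, and the 12 highest and 8 lowest ratios to each class among genes at 30 CPM or more. Haemoglobin, mitochondrial, ribosomal, sex-linked and clone genes were left out of the last 4. Ratios to a class were ranked by the smallest of the 4 library values for the highest genes and by the largest for the lowest. Members and lists were chosen with earlier results of these data known. Of 296 listed genes 6 are not analysed here.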

Additional observations from a re-analysis of the deposited data

Results flagged for a closer look

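The effect of genotype differed between member cells and Cux2 cells for 6 genes by the interaction test in edgeR, each with an adjusted p below 0.05. As log2 differences of the effect in members minus that in Cux2 cells, they were -5.07 for Hist1h2ap, -4.89 for Hist1h2ao, -2.44 for Reln, 0.95 for Gnb1, 0.85 for Actb and 1.52 for Slc24a5. Hist1h2ao had 34, 16, 0 and 2 counts in members of control 1, control 2, cKO 1 and cKO 2. In members of control 2, 58 of 63 Reln counts lay in 1 cell, and without control 2 the adjusted p of Reln was 0.104, and without cKO 1 it was 0.0551. Actb stood at 3287, 3618, 4457 and 5452 CPM in members and 4969, 6435, 3433 and 5546 CPM in Cux2 cells. With at least 4 of the 6 genes required of members, the adjusted p was 0.201 for Hist1h2ao, 0.662 for Actb, 0.421 for Slc24a5 and 0.989 for Reln.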

How the results depend on the processing

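Calls moved with the setting. For genotype, against 0 genes, DESeq2 called 3, no filter on low counts 18, the replicate block 19 and members without glial counts 1. Leaving out 1 library gave 0 to 35. RLE factors, at least 2 or 4 of 6 genes, the rule after thinning and leaving out very high totals gave 0. Against Cux2 cells, 6 interaction calls became 23 with no filter, 6 with RLE factors, 9 with at least 4 of 6 genes, and 10 to 34 when 1 library was left out. Against Fezf2 or Syt6 cells, 0 became 3 with RLE factors, 7 with no filter, 14 with at least 4 of 6 genes, and 0 to 19 when 1 library was left out. Genes at 2-fold from Cux2 cells, 14 higher and 5 lower (19), numbered 2 with at least 2 of 6 genes, 84 with at least 4 (35 higher, 49 lower), 34 with a prior of 1 CPM, 137 without cells with glial counts (22 higher, 115 lower) and 27 to 52 when 1 library was left out. From Fezf2 or Syt6 cells, 12 became 29 with at least 4, 71 without cells with glial counts and 15 to 21 when 1 library was left out. These class alternatives were chosen after seeing the data. The cause was not tested.

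The share difference kept its sign in all sorted cells under each alternative run, from -4.30 points without the 5 genes required at 0 to -0.315 points thinned to 3000 counts, and the paired difference was also -0.849. Among Neurod6 cells it was -1.44 paired, -0.472 thinned to 5000, -0.607 thinned to 3000, -0.528 with at least 2 of 6 genes, -0.840 with at least 4, -5.22 without the 5 genes required at 0, and -0.514 to -2.37 when 1 library was left out. Its sign turned without control 1 (0.215) or cKO 2 (0.467) when thinned to 5000, and without control 1 (0.035) or cKO 2 (0.886) with at least 2 of 6 genes.

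Signs reversed, with no reversed value past the threshold, for Hist1h2ap with at least 2 of 6 genes (0.19), Otub1 with the rule after thinning (-0.30) and Ptprz1 with at least 4 (-0.63). Interactions against Cux2 cells ranged, with 1 library left out, from -1.83 to 0.044 for Drd and -1.79 to 0.37 for Npy, both reversed without control 1, and from -0.073, reversed without cKO 1, to 0.24 for Sfxn1. Against Fezf2 or Syt6 cells Foxp2 was 0.89 with at least 4 of 6 genes and -5.92 to 0.91 with 1 library left out, reversed without control 2 and without cKO 1, and Npy was -1.59 to 0.015, reversed without control 1.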
